A study of Sus scrofa with 4 samples.

Results

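The small leucine-rich proteoglycans (SLRPs) are secreted matrix proteins built from repeats rich in leucine. The family members described here were chosen by gene name and are DCN, LUM, BGN, FMOD, OGN, ASPN, PRELP, PODN, OMD and ECM2. Of these 10 genes, 9 had a row among the 29263 genes of the count tables. PODN was looked for by symbol and by Ensembl identifier and was not analysed here. All 9 passed the filter on low counts.

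Lung cells came from pigs with an LGR5-H2B-GFP knock-in, an allele that makes green fluorescent protein, fused to a histone, where LGR5 is transcribed. LGR5 is a receptor that amplifies Wnt signals. Live cells were sorted by fluorescence into a bright fraction (GFP-HI, 2 libraries) and a fraction without fluorescence (GFP-NEG, 2 libraries), so the knock-in was common to both fractions. The titles number the libraries as biological replicates 1 and 2. The protocol describes adult as well as fetal lung and antibodies against EPCAM and NGFR, without assigning them to libraries. Only the name of the authors' comparison table speaks of adult pigs, beside the code D111, which no label explains. GFP-NEG is a mixture of every cell without fluorescence, and histone-bound fluorescent protein is long-lived, so the fractions are defined by the reporter and not by a cell type.

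SLRPs bind to the surface of collagen fibrils, where they limit the thickness of the fibrils and their spacing. Several carry sugar chains, chondroitin or dermatan sulfate on decorin and biglycan and keratan sulfate on lumican and fibromodulin, and several bind growth factors such as TGF-beta. In the lung they are made chiefly by fibroblasts and smooth muscle cells, and some members are also abundant in airway cartilage.

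The GFP-HI libraries held 24200550 and 24689986 counts and the GFP-NEG libraries 6292253 and 7045652, so the fractions differed in depth. Levels are given as CPM, TMM-scaled counts relative to library size, where TMM is a correction for the make-up of each library. LGR5 was at 146 and 152 CPM in GFP-HI and at 1.55 and 0.767 CPM in GFP-NEG, so the fractions matched their labels. The surfactant gene SFTPC was found in all 4 libraries (62.0 to 301 CPM). Summed over 8 fibroblast markers, 5 of which were higher in GFP-HI by the test below, GFP-HI held 72427 and 55690 CPM, GFP-NEG replicate 1 held 23933 and GFP-NEG replicate 2 held 8641. Most of each sum came from COL1A1, COL1A2 and COL3A1 (19484, 30096 and 17777 CPM in GFP-HI replicate 1), the 3 markers that edgeR did not call. For each of these 3, both GFP-HI libraries lay above both GFP-NEG libraries. A second test, DESeq2, called them at adjusted p-values of 0.0035, 0.016 and 7.0e-04. All 8 fibroblast markers were higher in GFP-NEG replicate 1 than in GFP-NEG replicate 2, against 44.8% of all genes tested. The sum of 8 immune markers was 160 and 232 CPM in GFP-HI against 1329 and 1956 in GFP-NEG, and that of 8 endothelial markers was 209 and 209 CPM against 1396 and 567. In bulk libraries like these, fewer cells of a type and less RNA per cell cannot be told apart.

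As a family, the 9 SLRP genes took 1.29% of all counts in GFP-HI replicate 1 and 1.81% in GFP-HI replicate 2, with 95% Wilson intervals of 1.29 to 1.30% and 1.80 to 1.81%. In GFP-NEG they took 0.390% (0.385 to 0.395%) in replicate 1 and 0.109% (0.106 to 0.111%) in replicate 2. These intervals cover counting error only. The family share was therefore 3.31 times as high in GFP-HI within replicate 1 and 16.6 times as high within replicate 2.

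Of the 9 genes, 7 were higher in GFP-HI (DCN, LUM, ASPN, OGN, ECM2, BGN and OMD), FMOD was not past the threshold, and PRELP was lower. The test was edgeR's quasi-likelihood test on the whole table, with Benjamini-Hochberg adjustment over 19682 genes and a threshold of 0.05 on the adjusted p. By the same rule 8.35% of all genes tested were higher in GFP-HI and 27.6% were lower. For 8 of the 9 genes both GFP-HI libraries lay above both GFP-NEG libraries, which held for 27.7% of all genes tested. PRELP overlapped, so none lay wholly below, which held for 42.0% of all genes tested. The median log2 fold change was 2.46 over the 9 genes and -0.25 over all genes tested. The 7 higher genes were also called with the replicate number as a block (8.67% of all genes tested were higher) and under DESeq2 (6.91% higher, 26.7% lower), and PRELP was called by neither. DESeq2 with the block called FMOD too (6.13% of all genes tested were higher). The calls depended on single libraries: 5 were called higher without GFP-HI replicate 1, against 5.23% of all genes tested, 2 without GFP-HI replicate 2 (3.03%), 8 without GFP-NEG replicate 1 (7.62%) and 1 without GFP-NEG replicate 2 (1.23%). The p-values and standard errors (SE) rest on the spread between these libraries only. The edgeR fit takes that spread from genes of like level, so it does not measure a gene's own scatter. PRELP had an SE of 0.54 by edgeR and 0.75 by DESeq2, and DCN had 1.32 and 0.63.

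In the authors' deposited table the same 7 genes had an adjusted p-value under 0.05 and were higher in GFP-positive cells, while FMOD (0.211) and PRELP (0.155) did not pass.

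**Figure D1:**
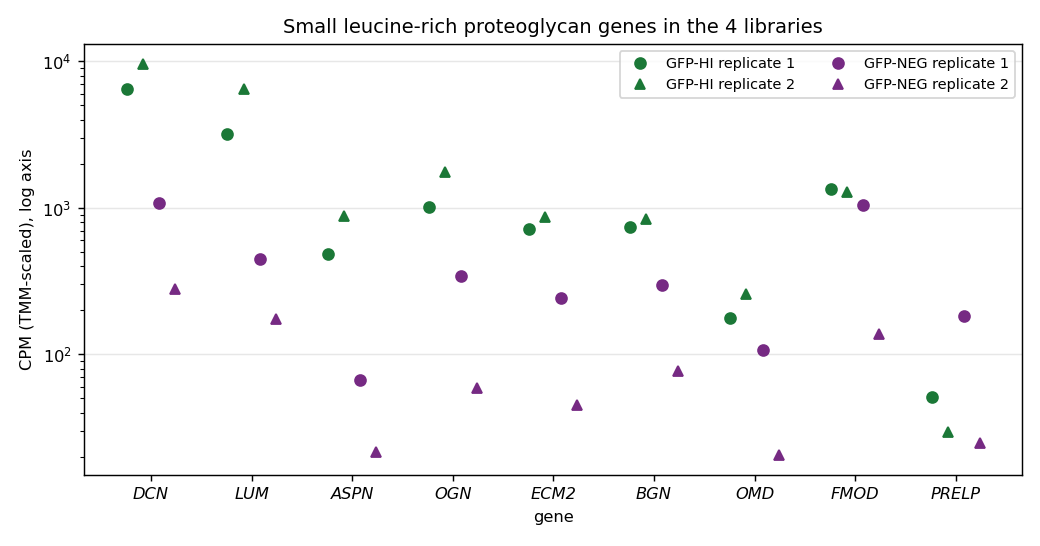
CPM (log axis) of the 9 genes in each library, with GFP-HI in green, GFP-NEG in purple, circles for replicate 1 and triangles for replicate 2. Both green points lie above both purple points for every gene except PRELP, and FMOD in GFP-NEG replicate 1 (1047 CPM) comes close to its GFP-HI values. CPM is not corrected for transcript length, so heights are to be compared within a gene only.

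Decorin, encoded by DCN, is the prototype of the first class of the family and binds collagen fibrils and TGF-beta. Its level was 6439 and 9662 CPM in GFP-HI replicates 1 and 2, against 1078 and 280 CPM in GFP-NEG replicates 1 and 2. The lower GFP-HI library was above both GFP-NEG libraries, and GFP-NEG replicate 1 held 3.85 times the level of GFP-NEG replicate 2. The log2 fold change was 3.57 ± 1.32 (SE), or 11.9-fold, with an adjusted p of 0.023 (edgeR). Without GFP-HI replicate 2 the adjusted p was 0.059 and without GFP-NEG replicate 2 it was 0.17, at log2 fold changes of 3.29 and 2.86.

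Asporin (ASPN), a relative of decorin with a run of aspartate residues, competes with it for collagen. ASPN was at 486 and 882 CPM in GFP-HI and at 67.1 and 21.6 CPM in GFP-NEG. The groups were far apart, with a log2 fold change of 3.95 ± 0.78 (SE), or 15.4-fold (adjusted p of 1.1e-05, edgeR). Without each of the 4 libraries in turn the ASPN log2 fold change ranged from 3.31 to 5.03. LUM had a log2 fold change near that of ASPN (3.96) with a larger SE by edgeR (1.19). By DESeq2 the SE was 0.62 for ASPN and 0.60 for LUM.

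Biglycan (BGN) carries chondroitin or dermatan sulfate chains like decorin and, when released from the matrix, can signal through Toll-like receptors. BGN was at 738 and 844 CPM in GFP-HI and at 297 and 76.7 CPM in GFP-NEG. The GFP-HI replicates were close to each other, and the spread lay in GFP-NEG. The log2 fold change was 2.08 ± 0.76 (SE), or 4.23-fold (adjusted p of 0.020, edgeR). The call was lost without GFP-HI replicate 1 (2.27, adjusted p of 0.053), without GFP-HI replicate 2 (2.03, 0.11) and without GFP-NEG replicate 2 (1.37, 0.52), and the log2 fold change was 3.42 without GFP-NEG replicate 1.

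ECM2, a larger matrix protein grouped with this class by its repeats, was at 712 and 871 CPM in GFP-HI and at 243 and 44.8 CPM in GFP-NEG. Its groups did not overlap, and edgeR gave a log2 fold change of 2.46 ± 0.76 (SE) at an adjusted p of 0.0050. ECM2 lost its call without GFP-HI replicate 2 (2.35, adjusted p of 0.072) and without GFP-NEG replicate 2 (1.67, 0.39), and reached 4.19 without GFP-NEG replicate 1.

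Lumican (LUM) belongs to the second class, whose members can carry keratan sulfate, and helps to order collagen fibrils. LUM was at 3200 and 6522 CPM in GFP-HI and at 448 and 176 CPM in GFP-NEG. GFP-HI replicate 2 held 2.04 times the level of GFP-HI replicate 1, yet the lower of them was well above GFP-NEG. The log2 fold change was 3.96 ± 1.19 (SE), or 15.6-fold (adjusted p of 0.0036, edgeR). It stayed between 3.40 and 4.84 when single libraries were left out, and the call was lost without GFP-NEG replicate 2 (3.40, adjusted p of 0.072).

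Osteomodulin (OMD), a keratan sulfate proteoglycan named for its place in bone, was at 176 and 259 CPM in GFP-HI and at 108 and 20.5 CPM in GFP-NEG. The groups did not overlap, although GFP-NEG replicate 1 was nearer to GFP-HI than to its own replicate. By edgeR the log2 fold change came to 1.76 ± 0.60 (SE) at an adjusted p of 0.012. Without GFP-HI replicate 1 it was 2.10 (adjusted p of 0.058), without GFP-HI replicate 2 it was 1.495 (0.17), without GFP-NEG replicate 2 it was 0.97 (0.61) and without GFP-NEG replicate 1 it was 3.46 (0.0023).

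Fibromodulin (FMOD) shares a binding site on collagen with lumican and also binds TGF-beta. FMOD was at 1351 and 1293 CPM in GFP-HI, at 1047 CPM in GFP-NEG replicate 1 and at 137 CPM in GFP-NEG replicate 2. GFP-NEG replicate 1 was thus just below both GFP-HI libraries, and 7.61 times as high as GFP-NEG replicate 2. The log2 fold change was 1.16 ± 0.85 (SE) and did not pass the threshold (adjusted p of 0.30, edgeR). Without GFP-NEG replicate 1 it was 3.32 (adjusted p of 0.018) and without GFP-NEG replicate 2 it was 0.30 (0.92), so the size of the difference depended on which GFP-NEG library was used.

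PRELP, the proline- and arginine-rich member, binds collagen and heparan sulfate and is abundant in cartilage. PRELP was at 51.1 and 29.5 CPM in GFP-HI, at 184 CPM in GFP-NEG replicate 1 and at 24.7 CPM in GFP-NEG replicate 2. The groups overlapped, because GFP-NEG replicate 2 was the lowest of the 4 libraries. By edgeR the log2 fold change came to -1.37 ± 0.54 (SE) at an adjusted p of 0.032, and with the replicate number as a block it was -0.80 with an adjusted p of 0.29. Of the fits without 1 library, the call held only without GFP-NEG replicate 2 (-2.23, adjusted p of 0.019). It was -1.74 (0.15) without GFP-HI replicate 1, -0.996 (0.45) without GFP-HI replicate 2 and 0.76 (0.45) without GFP-NEG replicate 1.

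Osteoglycin (OGN), also called mimecan, belongs to the third class and takes part in fibril assembly. OGN was at 1016 and 1747 CPM in GFP-HI and at 340 and 58.7 CPM in GFP-NEG. Both GFP-HI libraries were above both others, at a log2 fold change of 2.79 ± 0.86 (SE), or 6.93-fold (adjusted p of 0.0048, edgeR). The call was lost without GFP-HI replicate 2 (2.39, adjusted p of 0.080) and without GFP-NEG replicate 2 (1.98, 0.31), and the log2 fold change was 4.61 without GFP-NEG replicate 1.

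The replicates gave differences of unequal size. Within replicate 1 the log2 CPM difference, GFP-HI minus GFP-NEG, was 2.58 for DCN, 2.84 for LUM and 2.85 for ASPN, and within replicate 2 it was 5.11, 5.21 and 5.34. OGN, ECM2 and BGN were at 1.58, 1.55 and 1.31 in replicate 1 and at 4.89, 4.28 and 3.46 in replicate 2. OMD and FMOD were at 0.71 and 0.37 in replicate 1 and at 3.65 and 3.23 in replicate 2, and PRELP was at -1.84 and 0.26. The difference was larger in replicate 2 for 9 of 9 genes, as it was for 47.1% of all genes tested. All 9 genes were also higher in GFP-NEG replicate 1 than in GFP-NEG replicate 2, by 2.55-fold for LUM to 7.61-fold for FMOD, against 44.8% of all genes tested. The fibroblast marker sum moved the same way between these 2 libraries (23933 and 8641 CPM). So did the chondrocyte (7668 and 984), smooth muscle and pericyte (2571 and 385), endothelial (1396 and 567) and epithelial (758 and 177) sums. The immune (1329 and 1956 CPM) and mesothelial (0.311 and 3.18 CPM) sums moved the other way. The part of any of these marker sets in the result was not tested.

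**Figure D2:**
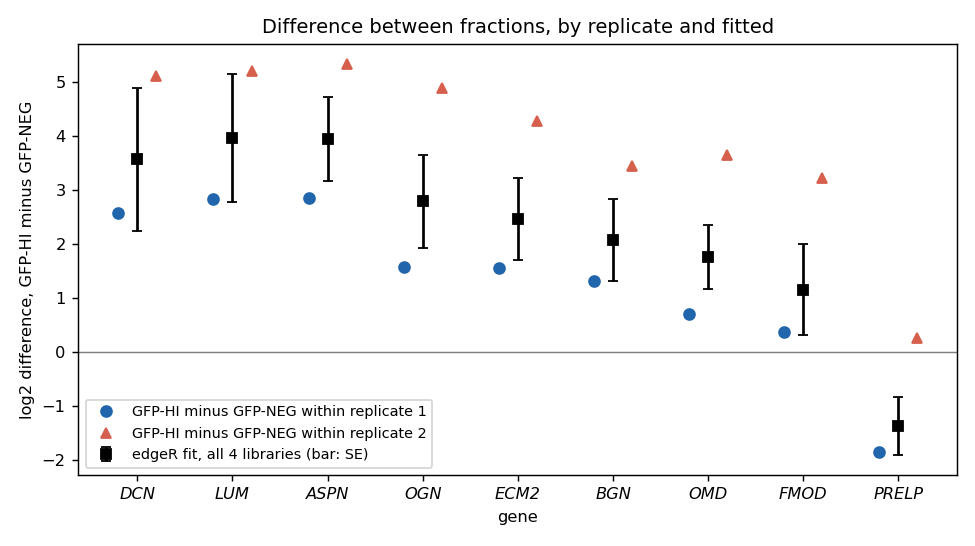
Difference between fractions for each gene on the log2 scale, GFP-HI minus GFP-NEG, within replicate 1 (blue circles) and replicate 2 (red triangles), with the edgeR fold change over all 4 libraries as black squares and its standard error as bars. Each red triangle lies above the blue circle of the same gene, and in replicate 1 only PRELP lies below 0.

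Ratios between genes within a library compare the make-up of the matrix transcripts between libraries, since transcript length cancels. Of 8 ratios to DCN, those of LUM and ASPN overlapped between the fractions and the other 6 were lower in both GFP-HI libraries. LUM counts were 49.7% and 67.5% of DCN counts in GFP-HI, against 41.5% and 62.8% in GFP-NEG. ASPN counts were 7.54% and 9.13% of DCN counts in GFP-HI, against 6.22% and 7.72% in GFP-NEG. For both genes the spread within a fraction was as wide as the gap between the fractions.

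The other 6 genes were lower relative to DCN in both GFP-HI libraries. DCN had a log2 fold change of 3.57 against a median of -0.25 over all genes tested, so the median gene was lower relative to DCN as well. The share of all genes with such a ratio was not computed. FMOD was at 21.0% and 13.4% of DCN counts in GFP-HI, against 97.1% and 49.2% in GFP-NEG. BGN was at 11.5% and 8.73% against 27.6% and 27.4%, the 2 GFP-NEG libraries being nearly alike. OMD was at 2.73% and 2.68% against 10.0% and 7.33%, and PRELP at 0.793% and 0.305% against 17.1% and 8.82%. ECM2 was at 11.06% and 9.02% against 22.5% and 16.0%, and OGN at 15.8% and 18.1% against 31.6% and 21.0%. With 2 libraries in each group an exact permutation test cannot give a two-sided p under 0.333, so these ratios are given as values.

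As shares of the family, DCN and LUM together held 68.0% and 73.2% of the counts of the 9 genes in GFP-HI, against 40.0% and 54.2% in GFP-NEG replicates 1 and 2. FMOD held 9.54% and 5.85% in GFP-HI against 27.5% and 16.4% in GFP-NEG. PRELP held 0.360% and 0.133% in GFP-HI against 4.82% and 2.94% in GFP-NEG.

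**Figure D3:**
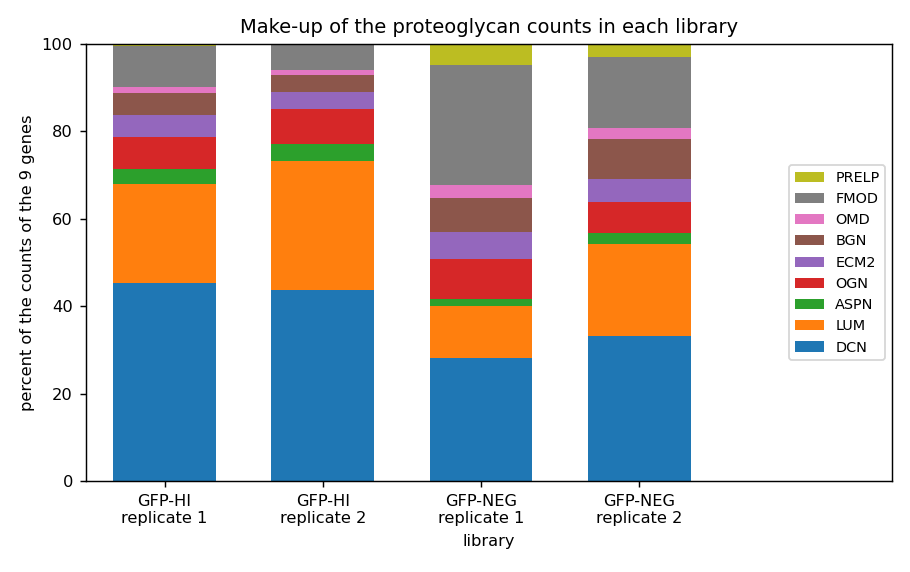
Share of each gene, in percent, in the summed counts of the 9 genes for each library, as stacked bars in the order of the legend. The grey FMOD segment is 9.54% and 5.85% in GFP-HI against 27.5% and 16.4% in GFP-NEG, and the blue DCN segment is larger in GFP-HI (45.4% and 43.7%) than in GFP-NEG (28.3% and 33.3%). Shares are of counts and are not corrected for transcript length.

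The same ratios were taken to genes outside the family, again without the share of all genes beside them. Relative to COL1A2, a chain of type I collagen, 6 of the 9 genes were higher in both GFP-HI libraries, FMOD and OMD overlapped and PRELP was lower. DCN was at 21.4% and 41.0% of COL1A2 counts in GFP-HI and at 8.84% and 8.41% in GFP-NEG. BGN was at 2.45% and 3.58% against 2.44% and 2.31%, so the lower GFP-HI value was almost that of GFP-NEG. Relative to COL3A1, the chain of type III collagen, only DCN, LUM and ASPN were higher in both GFP-HI libraries, 5 overlapped (BGN, FMOD, OGN, OMD and ECM2) and PRELP was lower. OGN was at 5.71% and 11.3% of COL3A1 counts against 6.56% and 2.64%. Relative to PDGFRA, a receptor that marks fibroblasts, none of the 9 was higher in both GFP-HI libraries: 4 overlapped (DCN, LUM, OGN and ASPN) and 5 were lower. PDGFRA had a log2 fold change of 3.53 against the median of -0.25 over all genes tested, so the median gene was lower relative to it too. DCN was at 784% and 1718% of PDGFRA counts in GFP-HI and at 1109% and 1232% in GFP-NEG, whereas FMOD was at 164% and 230% against 1077% and 606%.

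Most of the genes lie in clusters. In the RefSeq annotation of Sscrofa11.1, used here for gene order only, DCN, LUM, KERA and EPYC follow each other with 0 protein-coding genes between them. OGN, OMD, ASPN and ECM2 form another uninterrupted run, and FMOD, PRELP and OPTC the last. In the first cluster DCN and LUM were among the higher genes. KERA was at 2.49 and 0.892 CPM in GFP-HI against 6.99 and 0.987 CPM in GFP-NEG, from at most 55 counts in any library. The KERA log2 fold change was -1.22 (adjusted p of 0.42, edgeR). EPYC had 0 and 2 counts in GFP-HI, against 8 and 1 in the GFP-NEG libraries, which were less deep. In the second all 4 genes were higher by edgeR, against 8.35% of all genes tested, from a log2 fold change of 1.76 for OMD to 3.95 for ASPN. They are 4 of the 7 higher genes above, with the same dependence on single libraries. In the last FMOD had a log2 fold change of 1.16 and PRELP one of -1.37, and OPTC had at most 2 counts in any library.

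Profiles over the 4 libraries were compared by the Euclidean distance between centred log2 CPM values, as a description with no test. LUM and ASPN were each other's nearest member (distance 0.241), DCN was nearest to ASPN (0.390), OGN and ECM2 were nearest to each other (0.479), and so were BGN and OMD (0.452). FMOD was nearest to OMD (0.692), and PRELP was far from every other member (2.65 to its nearest, FMOD). Among 9237 other genes with a symbol and a mean of at least 10 CPM, the 5 nearest to DCN were RHOJ, DPYSL3, F2RL2, C1QTNF7 and EFCC1, at distances of 0.184 to 0.448. RHOJ, a small GTPase, was at 158 and 242 CPM in GFP-HI and at 30.4 and 7.67 CPM in GFP-NEG.

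Among 8 further family members, PODNL1 and TSKU were higher in GFP-HI, CHAD was lower, KERA and CHADL did not pass the threshold, and EPYC, OPTC and NYX were too low to be tested. Over all genes tested 8.35% were higher and 27.6% lower. The median log2 fold change of the 5 tested genes was -1.22, against -0.25 over all genes tested. PODNL1, a podocan-like member, was at 76.7 and 46.4 CPM in GFP-HI and at 11.0 and 0.877 CPM in GFP-NEG. The PODNL1 log2 fold change of 3.40 ± 0.57 (SE) had an adjusted p of 2.4e-07 (edgeR), and its call held without each library in turn (2.44 to 6.17). TSKU, tsukushi, which modulates BMP and Wnt signals outside the cell, was at 149 and 56.8 CPM against 30.4 and 8.44. The TSKU log2 fold change was 2.41 ± 0.55 (SE, adjusted p of 1.3e-04, edgeR), and its call was lost without GFP-HI replicate 1 (1.65, adjusted p of 0.085) and without GFP-NEG replicate 2 (1.72, 0.18).

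CHAD, chondroadherin, a cartilage protein that binds chondrocytes, was at 34.3 and 13.7 CPM in GFP-HI and at 311 and 45.3 CPM in GFP-NEG. The CHAD log2 fold change of -2.89 ± 0.59 (SE) had an adjusted p of 2.6e-05 (edgeR), which was lost when GFP-NEG replicate 1 (-0.86, adjusted p of 0.35) or GFP-HI replicate 2 (-2.34, 0.095) was left out. Like PRELP and FMOD, CHAD was far higher in GFP-NEG replicate 1 than in GFP-NEG replicate 2, by 6.86-fold. This was not particular to them: the ratio was 5.80 for OGN, 5.41 for ECM2 and 5.26 for OMD. It was 20.8 for the fibroblast marker TCF21 and 8.63 for the smooth muscle marker ACTA2. The sum of 9 chondrocyte markers was 7668 CPM in GFP-NEG replicate 1, 984 CPM in GFP-NEG replicate 2 and 399 and 294 CPM in GFP-HI. All 9 were higher in GFP-NEG replicate 1 than in GFP-NEG replicate 2, against 44.8% of all genes tested. By edgeR 8 of the 9 were lower in GFP-HI, against 27.6% of all genes tested, and none was at 0 in GFP-HI. COL2A1, the main collagen of cartilage, was at 210 and 83.9 CPM in GFP-HI and at 5313 and 681 CPM in GFP-NEG. MATN1, MATN3 and COL9A1, which encode other cartilage matrix proteins, had log2 fold changes of -4.47, -4.54 and -4.41 (adjusted p of 4.0e-08, 3.1e-10 and 5.8e-09, edgeR). The sum of 8 smooth muscle and pericyte markers was also uneven in GFP-NEG, at 2571 and 385 CPM, against 1746 and 2452 CPM in GFP-HI. So was that of 8 epithelial markers, at 758 and 177 CPM in GFP-NEG against 357 and 350 CPM in GFP-HI. The part of any of these marker sets in the values of PRELP, FMOD and CHAD was not tested.

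**Figure D4:**
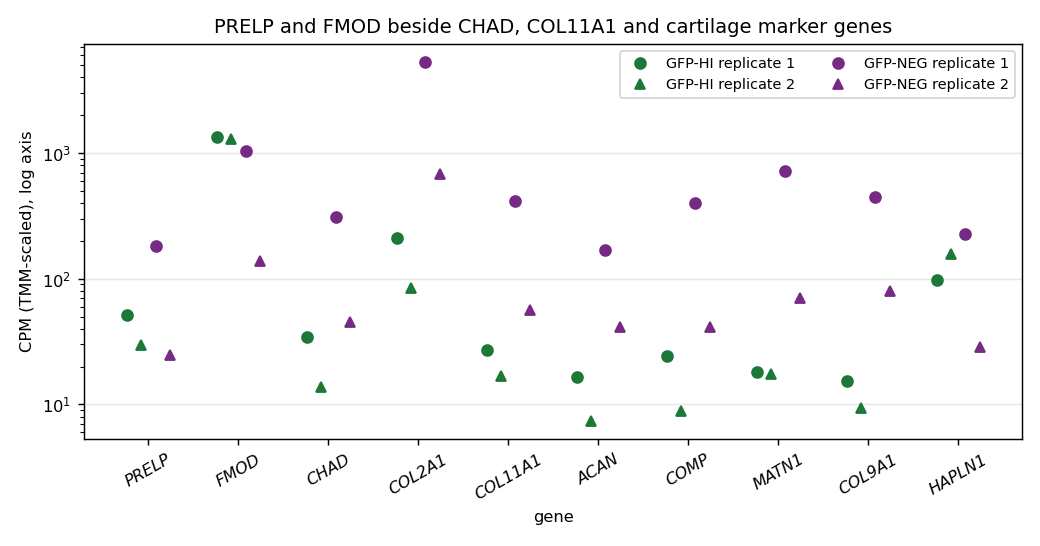
CPM (log axis) of PRELP and FMOD beside CHAD, COL11A1 and 6 chondrocyte markers in each library, with GFP-HI in green, GFP-NEG in purple, circles for replicate 1 and triangles for replicate 2. For every gene the purple circle (GFP-NEG replicate 1) is far above the purple triangle (GFP-NEG replicate 2), as for COL2A1 at 5313 and 681 CPM and PRELP at 184 and 24.7 CPM.

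The sugar chains of SLRPs are made by enzymes of the Golgi. Of 21 tested genes for chondroitin and dermatan sulfate chains, 2 were higher in GFP-HI, 3 were lower and 16 did not pass, and their median was 0.49 on the log2 scale. Over all genes tested 8.35% were higher and 27.6% lower, so this list was near that background for higher calls and under it for lower ones, and the lists that follow are to be read against the same shares. CHST14, which sulfates dermatan, was at 17.4 and 9.12 CPM in GFP-HI against 3.57 and 1.32 (log2 fold change 2.46, adjusted p of 0.0069, edgeR). CHPF, a chain-polymerizing factor, was at 116 and 67.6 CPM against 48.1 and 22.0 (1.39, adjusted p of 0.027). In the other direction, CHST11 and CHST15, which sulfate chondroitin, had log2 fold changes of -4.04 and -3.53 (adjusted p of 1.3e-08 and 1.5e-06, edgeR). XYLT1, one of the enzymes that start the chain, was at 4.39 and 4.16 CPM against 15.4 and 24.6 (-2.22, adjusted p of 0.0031). DSE, the epimerase that turns chondroitin into dermatan, overlapped between the fractions (79.8 and 53.0 against 61.2 and 22.3 CPM). CHST11 and CHST15 kept their calls without each library, and they were the only calls of the list without GFP-NEG replicate 2 or without GFP-HI replicate 1. Without GFP-HI replicate 2 CHST14 was called beside them, and with library size alone XYLT1 was. CHPF also lost its call under DESeq2 (adjusted p of 0.059) and with upper-quartile scaling (0.076), and CHST14 under DESeq2 with the replicate block (0.057).

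Of 7 tested genes for keratan sulfate chains, B4GALT4 was higher, CHST4 and B3GNT2 were lower, and 4 did not pass. B4GALT4, a galactosyltransferase, was at 61.8 and 119 CPM in GFP-HI and at 27.9 and 12.9 CPM in GFP-NEG (log2 fold change 2.14, adjusted p of 4.1e-04, edgeR). B3GNT2, which extends the chain, was at 56.5 and 24.4 CPM against 141 and 89.1 (-1.51, adjusted p of 0.018). B4GALT1, the most abundant gene of the list, did not pass (99.0 and 66.3 against 134 and 85.6 CPM). CHST4 had few counts, at 0.136 and 0 CPM against 1.71 and 4.82. None of the 3 genes kept its call in every fit that left out 1 library. Without GFP-HI replicate 2 the log2 fold change was 1.66 for B4GALT4, -0.95 for B3GNT2 and -4.38 for CHST4. Without GFP-NEG replicate 2 it was 1.65 for B4GALT4 and -1.83 for B3GNT2, and CHST4 was too low to be tested. Without GFP-NEG replicate 1 it was -1.09 for B3GNT2. Of the 2 enzymes that sulfate tyrosines, as found near the start of fibromodulin, TPST2 was lower (10.5 and 5.95 against 72.2 and 77.6 CPM, log2 fold change -3.19, adjusted p of 6.1e-07, edgeR) and held without each library. TPST1 did not pass (66.0 and 64.8 against 48.9 and 27.2 CPM).

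The collagens to which SLRPs bind were split by type. Of 8 fibrillar collagen genes, the type V chains COL5A1, COL5A2 and COL5A3 were higher in GFP-HI, with log2 fold changes of 3.13, 2.05 and 2.55 (adjusted p of 2.5e-04, 0.049 and 1.1e-04, edgeR). COL5A1 was at 842 and 567 CPM in GFP-HI and at 118 and 43.2 CPM in GFP-NEG. The cartilage chains COL2A1 and COL11A1 were lower, at log2 fold changes of -4.35 and -3.43 (adjusted p of 3.4e-04 and 2.1e-06). COL1A1, COL1A2 and COL3A1 missed the threshold by edgeR, at adjusted p-values of 0.36, 0.46 and 0.29, and passed it by DESeq2, which called all 8. Without GFP-NEG replicate 2 the 3 higher calls were lost, without GFP-HI replicate 1 or without GFP-HI replicate 2 2 of them held, and COL5A2 was the 1 lost. COL5A2 also lost its call with upper-quartile scaling (adjusted p of 0.064), with library size alone (0.071) and with a filter of at least 1 CPM in 2 libraries (0.065). COL11A1 lost its call without GFP-NEG replicate 1, and COL2A1 without GFP-HI replicate 2.

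Of 4 other collagen partners, COL6A1, COL14A1 and COL12A1 were higher, with log2 fold changes of 3.38, 2.16 and 1.91 (adjusted p of 0.0020, 0.034 and 0.036, edgeR). Collagen VI forms the beaded filaments to which decorin and biglycan bind. COL6A1 was at 2768 and 1421 CPM in GFP-HI and at 324 and 78.4 CPM in GFP-NEG. COL6A3, at 1.75, did not pass (adjusted p of 0.12), and passed with the replicate number as a block (2.19, adjusted p of 0.027, edgeR) and under DESeq2 (1.72, 0.035). Without GFP-NEG replicate 2 none of these calls held, and without either GFP-HI library 1 of them held. With library size alone 1 of the 3 held, and COL12A1 also lost its call with the filter of at least 1 CPM (0.066).

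Of 9 tested growth factors and receptors that SLRPs are known to bind, 3 were higher, 5 were lower and 1 did not pass. TGFB3 was at 333 and 399 CPM in GFP-HI and at 119 and 30.8 CPM in GFP-NEG (log2 fold change 2.29, adjusted p of 0.0023, edgeR). TGFB2 (2.25) and EGFR (2.28), a receptor that decorin antagonizes, were also higher (adjusted p of 2.2e-04 and 1.8e-04). TGFB1, the isoform best known as a decorin ligand, was at 11.06 and 12.2 CPM against 24.5 and 63.3 (-1.92, adjusted p of 0.0021), a call that held only without GFP-NEG replicate 1 among the fits that leave out 1 library. The receptors TLR2 and TLR4, through which free biglycan signals, were lower (log2 fold changes of -3.25 and -3.35, adjusted p of 9.8e-06 and 6.7e-06), and so was KDR, a VEGF receptor of endothelium (-2.63, 3.0e-05). TLR2, TLR4 and KDR were called without each library in turn, and without GFP-NEG replicate 2 no higher call of this list remained. Without GFP-HI replicate 2 TGFB3 lost its call. The sums of the immune and endothelial markers were also lower in GFP-HI, and their part in these receptor values was not tested.

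Of 8 tested proteases and helpers that process SLRPs or their collagen partners, 5 were higher, 2 were lower and ADAMTS4 did not pass. BMP1, which trims the propeptides of biglycan and of procollagen, was at 57.9 and 57.3 CPM in GFP-HI and at 15.2 and 4.17 CPM in GFP-NEG (log2 fold change 2.58, adjusted p of 5.5e-05, edgeR). PCOLCE, its enhancer, was at 1007 and 668 CPM against 307 and 108 (2.01, adjusted p of 0.027), and MMP2 at 732 and 831 CPM against 194 and 43.5 (2.72, adjusted p of 0.0018). TLL1, a relative of BMP1, and MMP3 were lower at low levels, with 0.317 and 0.248 CPM against 2.02 and 6.36 for TLL1 and 0.680 and 0 CPM against 6.37 and 1.21 for MMP3. The 5 higher calls were all lost without GFP-NEG replicate 2. PCOLCE and TLL1 also lost their calls without either GFP-HI library, TLL1 lost its call without GFP-NEG replicate 2 too, and MMP3 kept its call only without GFP-HI replicate 1 or GFP-NEG replicate 2. Both lower calls were lost under DESeq2 with the replicate block (adjusted p of 0.10 for TLL1 and 0.075 for MMP3).

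**Figure D5:**
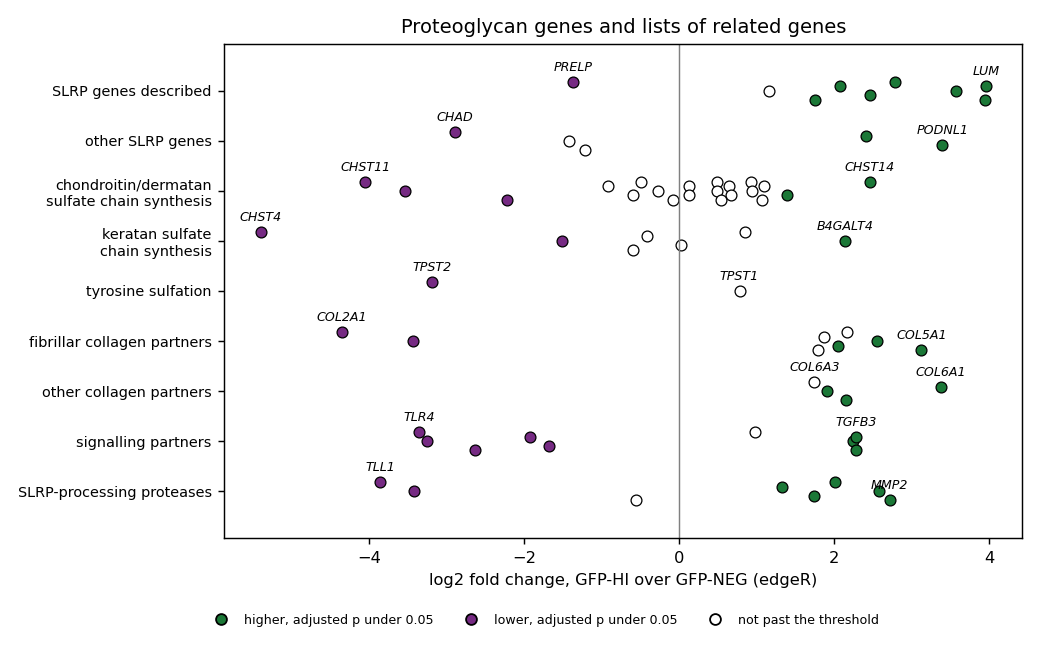
Log2 fold change, GFP-HI over GFP-NEG (edgeR), of each tested gene in the SLRP family and in 8 related gene lists, filled green where higher and purple where lower at an adjusted p under 0.05, and open otherwise. The lowest and highest gene of each list are named. Of the SLRP genes described, 7 are green on the right and PRELP is purple at -1.37, a call that was lost with the replicate number as a block. The chondroitin and dermatan list has 16 open points around 0.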

How the data were processed

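RNA sequencing counts from 4 libraries were used. Per the submitters' processing notes, featureCounts (Subread 1.5.2) and DESeq2 1.37.6 were used by the authors. The aligner and the strand setting were not given in the sources used here, so overlapping genes are uncertain. The name of the comparison table carries the version number of Sscrofa11.1 and a release number without naming the assembly, so no coordinates are printed. The 4 count tables the authors deposited hold whole-number counts, 1 column per library. The gene name table held symbols for 844 of the Ensembl identifiers, of which 834 were used. Rows that name no gene numbered 0, and columns of values that could not be matched to samples or to the comparison numbered 0.

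Per the file headers, the authors' deposited comparison table repeats these counts and adds a normalized signal and a log2 fold change. It also holds the authors' test statistic (score), with its p-value before and after adjustment. Only its log2 fold changes and adjusted p-values were used, since 2 signal columns have crossed headings.

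The main test was edgeR 4.0.16 (glmQLFit and glmQLFTest, R 4.3.3) with TMM scaling, filterByExpr and no covariate. After filtering, 19682 genes remained with 99.8% of counts. The common dispersion was 0.239. Gene-wise spread was moderated fully toward the trend over genes of like level, so SE and p do not measure a gene's own scatter. The SE is the log2 fold change divided by the square root of F. CPM values are counts over the TMM-scaled library size, where 1 count is worth 0.0405 to 0.159 before scaling. Log2 CPM differences used a prior count of 2. The procedure was run on simulated counts drawn with the common dispersion for every gene and no difference between replicates. That run cannot show how the procedure handles the uneven GFP-NEG libraries. DESeq2 1.42.0 was an alternative.

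The headings of the comparison table number the pigs, so libraries with the same number may share an animal. The main test ignored this pairing, and the fits with the replicate number as a block allowed for it. The correlation of the deviations of same-numbered libraries from the group means was 0.160. The genes and lists were chosen with earlier results of these data known. The named genes are the family members, LGR5, and from each related list and the chondrocyte markers up to 3 genes past the threshold in each direction with the largest fold change, and its most abundant gene. The 5 genes nearest to DCN were named by distance. Other genes (DSE, TGFB1, COL1A1, COL3A1, ADAMTS4, KERA, CHADL, SFTPC, PDGFRA and those at low counts) were named after their values were seen. No sequence is shown.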

Additional observations from a re-analysis of the deposited data

How the results depend on the processing

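The 12 alternatives were 3 other scalings, 2 other filters, DESeq2, a replicate block with either tool and each library left out in turn, where a lone library is assumed to vary like the other group. The number of SLRP genes called higher was 7 under each scaling, filter and tool and 8 under DESeq2 with the replicate block, where FMOD passed (log2 fold change 1.76, adjusted p of 0.017). It ranged from 1 to 8 without single libraries. The number called lower was 0 with no filter, with at least 1 CPM in 2 libraries, under DESeq2 and with the replicate block in either tool, where PRELP was at -1.34, -1.40, -1.39, -0.80 and -0.84, and 0 to 1 without single libraries. The block changed no other call of the SLRP genes in edgeR. Without single libraries the log2 fold change ranged from 2.86 to 4.90 for DCN, 3.40 to 4.84 for LUM, 1.37 to 3.42 for BGN, 0.30 to 3.32 for FMOD, 1.98 to 4.61 for OGN, -2.23 to 0.76 for PRELP, 0.97 to 3.46 for OMD and 1.67 to 4.19 for ECM2. The fits without 1 library have fewer samples, and for the others the cause was not tested.

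Over all genes, 1643 were called higher and 5433 lower. The numbers were 1083 higher under upper-quartile scaling, 888 higher with library size alone and 3153 lower under DESeq2 with the replicate block, and 216 to 1635 higher and 1575 to 4999 lower without single libraries. The median log2 fold change of all genes moved from -0.25 to -0.58 and -0.68 under the first 2, to -1.21 with no filter and to 0.03 without GFP-NEG replicate 2. The edgeR replicate block gave 1707 higher and 4793 lower, of which 1507 and 4680 were shared with the fit without it.

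For the lists, ranges are without single libraries. Chondroitin and dermatan genes called numbered 2 to 6, and 3 with library size alone, where the median was 0.0546 (0.15 under upper-quartile scaling). Keratan genes called numbered 0 to 3, with medians of -0.65 to -6.6e-05, and -0.70, -0.78 and -0.36 under upper-quartile scaling, library size alone and no filter. Fibrillar collagens called numbered 2 to 4 (median 1.39 to 3.01), and 8 under DESeq2 with or without the replicate block. Other collagens called numbered 0 to 4 (1.28 to 3.72), and 1 with library size alone. Signalling partners called numbered 4 to 7 (-1.67 to -0.48), with medians of -1.92 and -1.996 under upper-quartile scaling and library size alone. Proteases called numbered 1 to 5 (1.00 to 2.39), and 4 under DESeq2 with the replicate block. The median of the further SLRP genes ranged from -1.96 to 0.12. Of 34 genes named from lists and past the threshold, 34 kept their call with the replicate block in edgeR, 33 under DESeq2, 31 under DESeq2 with the block, 29 with library size alone, 32 with upper-quartile scaling, 32 with the stricter filter, and 14, 20, 25 and 30 without GFP-NEG replicate 2, GFP-HI replicate 2, GFP-HI replicate 1 and GFP-NEG replicate 1. KERA, EPYC, OPTC, NYX, CHST4 and MMP3 had at most 55 counts in any library, which limits what can be said of them.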
